A study of Coturnix japonica with 12 samples.

Results

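The genes described here act in the making of cholesterol, and were followed in the left and right Müllerian ducts of female Japanese quail (Coturnix japonica) embryos. They were taken by gene symbol from a named set of 7, which are HMGCS1, IDI1, SQLE, LSS, CYP51A1, DHCR7 and INSIG1. The table held 6 of the 7 symbols among its 16013 genes, and all 6 passed the filter on low values. CYP51A1 was not present as a symbol. LOC107309008, which the table describes as lanosterol 14-alpha demethylase, the reaction of CYP51A1, is given beside the 6 genes and is not counted among them.

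Müllerian ducts are the paired embryonic tubes from which the oviduct forms. In female birds the left duct normally develops and the right one regresses. Embryos grown in a surrogate eggshell received sesame oil alone, or sesame oil with ethynylestradiol (EE), a synthetic oestrogen, from embryonic day 3 to embryonic day 12. Left and right ducts under each exposure made 4 groups of 3 samples, and all 12 samples were labelled female. The labels do not say whether replicates came from separate embryos or from pools, so the p-values measure the spread between these samples, which may be technical. The dose of EE was not given in the sources used here.

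Animal cells build cholesterol from acetyl-CoA. The mevalonate route makes isoprene units, these are joined into squalene, and squalene is closed into lanosterol, which is then trimmed and reduced to cholesterol. Transcription factors of the SREBP family switch on these genes when sterols in the endoplasmic reticulum are low, and INSIG proteins hold the SREBPs back when sterols are high. Among the genes followed here, HMGCS1 and IDI1 belong to the mevalonate route, SQLE and LSS make the ring, DHCR7 carries out a late reduction, and INSIG1 is a regulator.

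RNA was sequenced from polyadenylated transcripts, with total counts of 13303458 to 23621985 per sample. Levels below are CPM, the counts of a gene scaled to the sample's depth, unless FPKM, which also divides by exonic length, is named. EMX2, LHX1, PAX2 and WNT7A, which are expressed in Müllerian duct epithelium, had at least 6.26 FPKM in every sample. Haemoglobin transcripts took 6.11% to 12.7% of counts in right oil ducts and 0.991% to 5.65% in the other 9 samples. Summed skeletal muscle markers were highest in right oil replicate 1, at 709 CPM against 181 to 593 in the others. Summed liver markers reached 912 CPM in right EE replicate 1 against 7.71 to 121 in the others. One alternative left out these samples together with left oil replicate 1, which no marker sum used here set apart. Calls that ended without them are given below. Whether a lower level reflects fewer cells of a type or less RNA per cell cannot be told apart in these bulk samples.

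Per exonic length, DHCR7 had the highest level of the 6 genes, with 26.2 FPKM on average and 18.58 to 29.15 FPKM over the 12 samples. The mean over 12 samples was 8.17 FPKM for IDI1, 6.42 FPKM for INSIG1, 6.41 FPKM for HMGCS1, 6.03 FPKM for SQLE and 5.56 FPKM for LSS. These 5 genes thus lay near each other, and the range of every one of them overlapped the ranges of the other 4. Coordinates are those of the table, whose gene starts and ends equalled those of Coturnix japonica 2.1. HMGCS1 lies on chromosome Z at 15343282 to 15375698 on the minus strand, and NIM1K lies within it on the opposite strand. NIM1K had 8 to 84 counts per sample against 742 to 1546 for HMGCS1, and the strand setting of the counting was not given, so reads of the pair may not be separated. IDI1 (9329684 to 9336146, minus strand), INSIG1 (6943970 to 6954770, plus strand) and SQLE (124996213 to 125009918, plus strand) are on chromosome 2. LSS is on chromosome 7 at 2459052 to 2468648 and DHCR7 on chromosome 5 at 1419764 to 1424706, both on the plus strand.

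In control embryos, which received oil alone, the left duct had higher levels of SQLE, HMGCS1 and LSS than the right. The difference was 2.05-fold for SQLE, 1.46-fold for HMGCS1 and 1.6-fold for LSS. DHCR7 and INSIG1 had nearly the same mean level in both ducts. The oil calls compare with 19% of all genes tested called higher on the left in oil and 18.5% lower. In EE-exposed embryos none of the 6 genes passed the test between left and right, where 0.0848% of all genes tested did. SQLE was lower by 24.2% in EE than in oil on the left, short of the threshold, and rose by 37.4% with EE on the right. The EE effect on SQLE differed between the ducts by the test of that difference. The plot of CPM by duct and exposure shows these levels sample by sample.

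**Figure D1:**
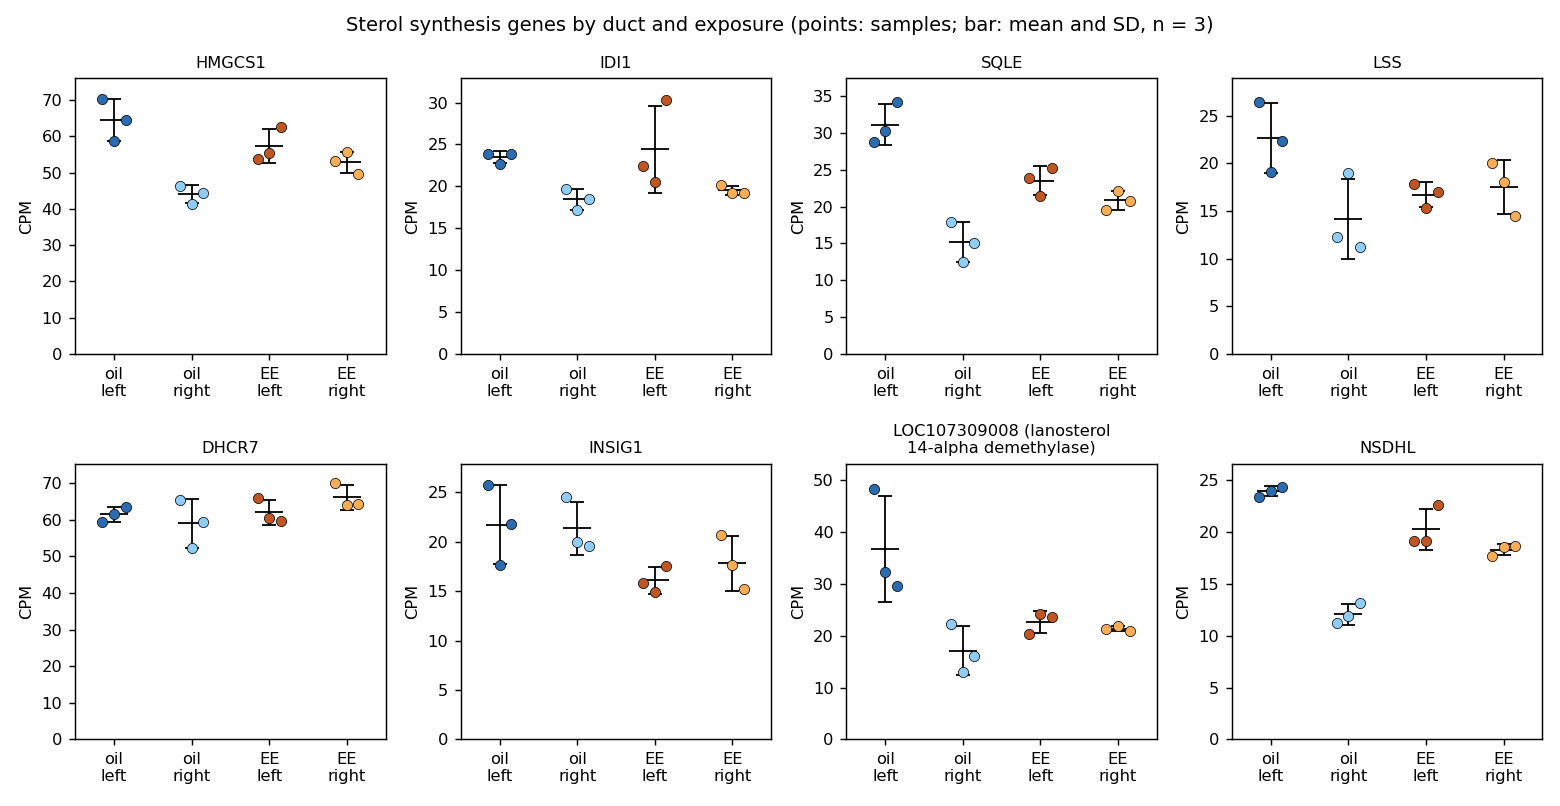
Level in CPM (y axis, from 0) of the 6 genes, LOC107309008 and NSDHL in the 4 groups (x axis); points are samples and bars the mean and SD of 3. SQLE ran from 28.8 to 34.2 CPM in left oil ducts and from 12.5 to 17.9 in right oil ducts, with both EE groups between them, while DHCR7 overlapped between every pair of groups except left oil and right EE.

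HMGCS1 catalyses an early condensation step of the mevalonate route. HMGCS1 was at 70.2, 58.7 and 64.6 CPM in left oil ducts and at 46.4, 41.5 and 44.5 CPM in right oil ducts. In EE, HMGCS1 was at 53.7, 55.6 and 62.6 CPM on the left and at 53.1, 55.6 and 49.7 CPM on the right. All 3 right oil samples lay below the other 9. The order of group means was left oil (64.5 ± 5.74, SD, n = 3), left EE (57.3 ± 4.67), right EE (52.8 ± 2.99) and right oil (44.1 ± 2.49). Neighbours in that order overlapped except right EE and right oil.

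IDI1 interconverts the 5-carbon isoprene units. IDI1 was at 23.8, 22.7 and 23.9 CPM in left oil ducts and at 19.7, 17.2 and 18.5 CPM in right oil ducts. In EE, IDI1 was at 22.4, 20.6 and 30.4 CPM on the left and at 20.1, 19.2 and 19.2 CPM on the right. Left samples lay above right samples in both exposures, and left EE replicate 3 lay above all the others. Left EE had the highest mean and overlapped left oil, and right EE overlapped right oil.

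SQLE, squalene epoxidase, catalyses the first oxygen-dependent step of the route. SQLE was at 28.8, 30.3 and 34.2 CPM in left oil ducts and at 17.9, 12.5 and 15.1 CPM in right oil ducts. In EE, SQLE was at 23.9, 21.4 and 25.3 CPM on the left and at 19.6, 22.2 and 20.8 CPM on the right. The 3 left oil samples were the highest of the 12 and the 3 right oil samples the lowest. The EE groups lay between and overlapped each other. Means were 31.1 ± 2.79 in left oil, 23.5 ± 1.97 in left EE, 20.9 ± 1.30 in right EE and 15.2 ± 2.72 in right oil (SD, n = 3).

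LSS, lanosterol synthase, folds squalene epoxide into lanosterol, the first sterol. LSS was at 26.4, 19.1 and 22.3 CPM in left oil ducts and at 12.3, 19.0 and 11.2 CPM in right oil ducts. In EE, LSS was at 17.8, 15.3 and 17 CPM on the left and at 20.0, 18.0 and 14.5 CPM on the right. The oil groups did not overlap, by a small margin, since right oil replicate 2 lay just below left oil replicate 2. Group means ran in the order left oil, right EE, left EE and right oil, and each neighbouring pair overlapped.

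LOC107309008 removes a methyl group from lanosterol, per its description. LOC107309008 was at 48.3, 32.3 and 29.5 CPM in left oil ducts and at 22.3, 13 and 16.1 CPM in right oil ducts. In EE, LOC107309008 was at 20.3, 24.1 and 23.6 CPM on the left and at 21.2, 21.9 and 20.9 CPM on the right. Left oil samples were the highest of the 12, led by replicate 1, and the EE groups overlapped.

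DHCR7 reduces 7-dehydrocholesterol to cholesterol. DHCR7 was at 59.4, 61.4 and 63.4 CPM in left oil ducts and at 65.5, 52.1 and 59.3 CPM in right oil ducts. In EE, DHCR7 was at 66.0, 60.5 and 59.8 CPM on the left and at 70.1, 63.9 and 64.4 CPM on the right. Only right EE and left oil did not overlap, and the highest group mean was 1.12 times the lowest.

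INSIG1 retains the SREBP escort protein in the endoplasmic reticulum when sterols are high and is itself an SREBP target. INSIG1 was at 25.7, 17.7 and 21.8 CPM in left oil ducts and at 24.5, 19.9 and 19.6 CPM in right oil ducts. In EE, INSIG1 was at 15.9, 14.9 and 17.5 CPM on the left and at 20.7, 17.6 and 15.2 CPM on the right. The oil ducts overlapped, and left EE lay below left oil. A second gene, LOC107307909, is described as an INSIG1-like protein and had 30 to 110 counts per sample, and whether the pair shares reads was not tested.

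The first comparison asked how the left and right ducts of control embryos differed. SQLE was higher on the left by 1.03 ± 0.14 (log2 ratio ± SE, adjusted p = 4.12e-05, edgeR quasi-likelihood test). HMGCS1 was higher by 0.55 ± 0.10 (adjusted p = 0.000381) and LSS by 0.68 ± 0.20 (adjusted p = 0.0133). IDI1 did not overlap between the ducts but missed the threshold (0.35 ± 0.14, adjusted p = 0.071). IDI1 was called in 4 of 23 alternatives, which were limma with either pseudocount, library-size scaling and leaving out left EE replicate 3 (0.35 to 0.52, adjusted p = 0.00998 to 0.0346). The limma runs used FPKM, which like library-size scaling rest on total counts alone, so limma and library-size scaling are not separate checks. The difference was 0.06 for DHCR7, with a 95% interval of -0.14 to 0.26, and 0.03 for INSIG1, with an interval of -0.33 to 0.38. Thus 3 of the 6 genes were called higher and none lower, where 37.5% of the 11790 genes tested were called, 19% higher and 18.5% lower. Ranges did not overlap, with the left higher, for 4 of the 6, against 24.4% of all genes tested. The median log2 ratio of the 6 genes was 0.45, against -0.002 over all genes tested.

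The call of LSS was the least firm of the 3. LSS lost it without left oil replicate 1 (0.55, adjusted p = 0.0669), without right oil replicate 1 (0.59, adjusted p = 0.0516), without right oil replicate 3 (0.54, adjusted p = 0.0641) and without the 3 samples set aside (0.45, adjusted p = 0.171). With haemoglobin level as a covariate, SQLE had a log2 ratio of 0.70 (adjusted p = 0.058) and LSS 0.996 (adjusted p = 0.0575), while HMGCS1 kept its call. HMGCS1 was called in all 23 alternatives, but its adjusted p reached 0.0485, just under the threshold. Haemoglobin was higher in every right oil sample than in any other sample, so the covariate and that group cannot be fully separated. A call kept or lost with the covariate therefore does not decide the part of blood.

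Along the rest of the pathway, 20 synthesis genes were tested, made up of 5 of the 6 genes above (without INSIG1), LOC107309008 and 14 others. FAXDC2 was listed but did not pass the filter. Of all genes tested, 19% were called higher on the left in oil and 18.5% lower. Among the 20 synthesis genes, 8 were higher on the left and 1 was lower. The plot of left against right ratios by pathway step shows that the ratios above 0.9 were those of SQLE, LOC107309008 and NSDHL. FDPS, which acts before SQLE, averaged 8.25 CPM in left oil and 4.54 CPM in right oil ducts. Its oil ranges overlapped and it was not called, so the larger ratios were not clearly confined to late steps. LOC107309008 had the highest ratio of the 20, at 1.10 ± 0.20 (adjusted p = 0.000417). NSDHL, a dehydrogenase that acts in the removal of methyl groups from the sterol ring, was at 23.4, 23.9 and 24.3 CPM in left oil ducts and at 11.2, 11.8 and 13.1 CPM in right oil ducts. In EE, NSDHL was at 19.1, 19.2 and 22.5 CPM on the left and at 17.6, 18.5 and 18.7 CPM on the right. No pair of groups overlapped for NSDHL, and the ratio of left to right in oil was 0.99 ± 0.13 (adjusted p = 2.29e-05).

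At the early steps, ACAT2, which joins acetyl-CoA, was called with a smaller ratio of 0.38 (adjusted p = 0.0186). ACAT2 overlaps TCP1 on the opposite strand, so their reads may be mixed. MSMO1, a sterol methyl oxidase (0.53, adjusted p = 0.0138), and LBR, a sterol reductase that is also the lamin B receptor (0.48, adjusted p = 0.000143), were higher too. FDFT1, squalene synthase, ran the other way with -0.36 (adjusted p = 0.0245). FDFT1 has a squalene synthase-like partner in the table, LOC107306801, and its call was lost when only library size was used for scaling (-0.18, adjusted p = 0.266). ACAT2 also lost its call without left oil replicate 3 (0.35, adjusted p = 0.0565) or right oil replicate 2 (0.34, adjusted p = 0.0617), MSMO1 without right oil replicate 1 (0.38, adjusted p = 0.0647), and FDFT1 without left oil replicate 1 (-0.30, adjusted p = 0.0921) or right oil replicate 3 (-0.30, adjusted p = 0.0938). Without the 3 samples set aside, ACAT2, MSMO1 and FDFT1 were not called, with adjusted p-values of 0.0897 to 0.133. These 3 also lost their calls with the haemoglobin covariate (adjusted p = 0.0876 to 0.687), and FDFT1 under limma (adjusted p = 0.271 and 0.272). The other 11, among them MVK, PMVK, MVD, FDPS, GGPS1, HSD17B7, ERG28, EBP and SC5D, did not pass the test.

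**Figure D2:**
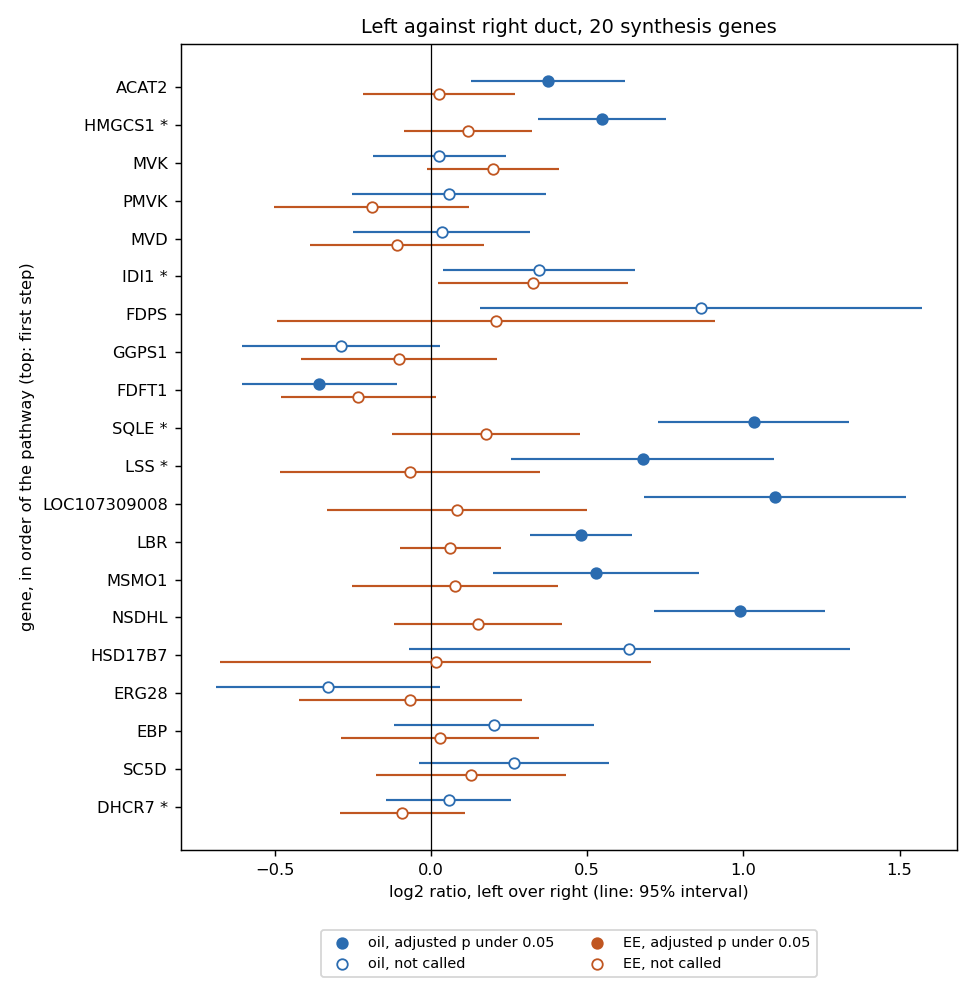
Log2 ratio of left over right duct (x axis) for 20 synthesis genes in order of the pathway (y axis, * marks genes of the named set), in oil (blue) and EE (orange); lines are 95% intervals and filled points have an adjusted p under 0.05. In oil 8 genes lay to the right of 0 with filled points and FDFT1 to the left, and in EE no point was filled.

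Several cell type and cell state lists differed between the same groups. Over all genes tested, 19% were called higher on the left in oil and 18.5% lower. All 26 of 26 proliferation genes tested were higher on the left in oil, and their summed level was 3850 to 4139 CPM in left oil and 1191 to 1312 CPM in right oil ducts. Epithelial markers were higher on the left for 7 of 13 and lower for 1. Smooth muscle markers were higher on the left for 10 of 12. Endothelial markers were higher for 12 of 15 and lower for 1. Macrophage and leukocyte markers were lower on the left for 9 of 11, and erythroid markers for 10 of 11. The part of these in the sterol gene differences was not tested, and the haemoglobin covariate above cannot decide it, since it follows the right oil group.

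The second comparison asked how EE changed each duct. In right ducts SQLE rose with EE by 0.46 ± 0.14 (log2, adjusted p = 0.0206) and HMGCS1 by 0.26 ± 0.10 (adjusted p = 0.0489). Both had ranges above those of right oil ducts, as was so for 23.7% of all genes tested. The 2 genes called higher, of 6, compare with 17.8% of all genes tested called higher and 34.9% called in either direction. LSS had a ratio of 0.31 ± 0.20 (adjusted p = 0.248) and INSIG1 -0.26 ± 0.17 (adjusted p = 0.246). LSS and DHCR7 were called higher under limma and library-size scaling, which both scale by total counts alone (adjusted p = 0.0228 to 0.0452). LSS was also called without right oil replicate 2 (0.58, adjusted p = 0.0276). The median of the 6 genes was 0.21, against -0.002 for all genes.

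These calls were close to the threshold. HMGCS1 lost its call in 14 of 23 alternatives, with an adjusted p of up to 0.211 and ratios of 0.22 to 0.29, among them on leaving out right oil replicate 2 or 3 or right EE replicate 1 or 2. SQLE lost it without right oil replicate 2 (0.34, adjusted p = 0.0958), without right oil replicate 3 (0.46, adjusted p = 0.0506), without right EE replicate 2 (0.41, adjusted p = 0.0753) and with the haemoglobin covariate (0.24, adjusted p = 0.392). With EE on the right, 17.8% of all genes tested were called higher and 17.1% lower. Of the 20 synthesis genes, 5 rose and none fell. Besides SQLE and HMGCS1 they were NSDHL (0.60, adjusted p = 0.00192), ACAT2 (0.37, adjusted p = 0.0193) and MVD, which decarboxylates mevalonate diphosphate (0.37, adjusted p = 0.0392). All but NSDHL lost the call with the haemoglobin covariate. MVD lost it without right oil replicate 1 or 2 or right EE replicate 1 or 2 (0.30 to 0.41), and ACAT2 without right oil replicate 2 (0.35, adjusted p = 0.0601) or right EE replicate 2 (0.29, adjusted p = 0.102). HMGCS1, ACAT2 and MVD also lost it without the 3 samples set aside. Proliferation genes rose with EE on the right for 26 of 26. Endothelial markers rose for 13 of 15 and fell for 1. Epithelial markers rose for 9 of 13, with a median log2 ratio of 0.81, and smooth muscle markers for 9 of 12. Erythroid markers fell for 6 of 11. The part of these lists was not tested, and the covariate cannot decide it, since it follows the right oil group.

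In left ducts none of the 6 genes was called, where 13.7% of all genes tested were called, 6.67% higher and 7.01% lower, in the edgeR test. SQLE (-0.40 ± 0.14, adjusted p = 0.0749), LSS (-0.44 ± 0.20, adjusted p = 0.166) and INSIG1 (-0.43 ± 0.17, adjusted p = 0.103) had unadjusted p-values of 0.0122, 0.0414 and 0.0198. The left EE samples of these 3 genes lay below all left oil samples, as was so for 16.9% of all genes tested. HMGCS1 had a ratio of -0.17 (95% interval -0.37 to 0.03), IDI1 0.06 (-0.24 to 0.37) and DHCR7 0.02 (-0.18 to 0.22). DESeq2 and limma also called none of the 6. SQLE was called with the haemoglobin covariate (-0.45, adjusted p = 0.0295) and INSIG1 without left oil replicate 2 (-0.56, adjusted p = 0.0469).

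With EE on the left, 7.01% of all genes tested were called lower and 6.67% higher. Among the 20 synthesis genes, 2 fell and none rose. LOC107309008 fell by 0.70 on the log2 scale (SE 0.19, adjusted p = 0.0238) and LBR by 0.35 (adjusted p = 0.00518). LOC107309008 was not called without left oil replicate 1, its highest sample (-0.45, adjusted p = 0.15). It also lost its call on leaving out each of the 3 left EE samples in turn, with ratios of -0.62 to -0.74 and adjusted p-values of 0.0509 to 0.0954. Without the 3 samples set aside it was at -0.45 (adjusted p = 0.0851). Proliferation genes were called lower with EE on the left for 4 of 26, and all 26 had ratios below 0. Endothelial markers were lower for 3 of 15 and higher for 1. Epithelial markers were higher for 4 of 13 and smooth muscle markers for 1 of 12. No macrophage and leukocyte or erythroid marker was called. The part of these lists was not tested.

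**Figure D3:**
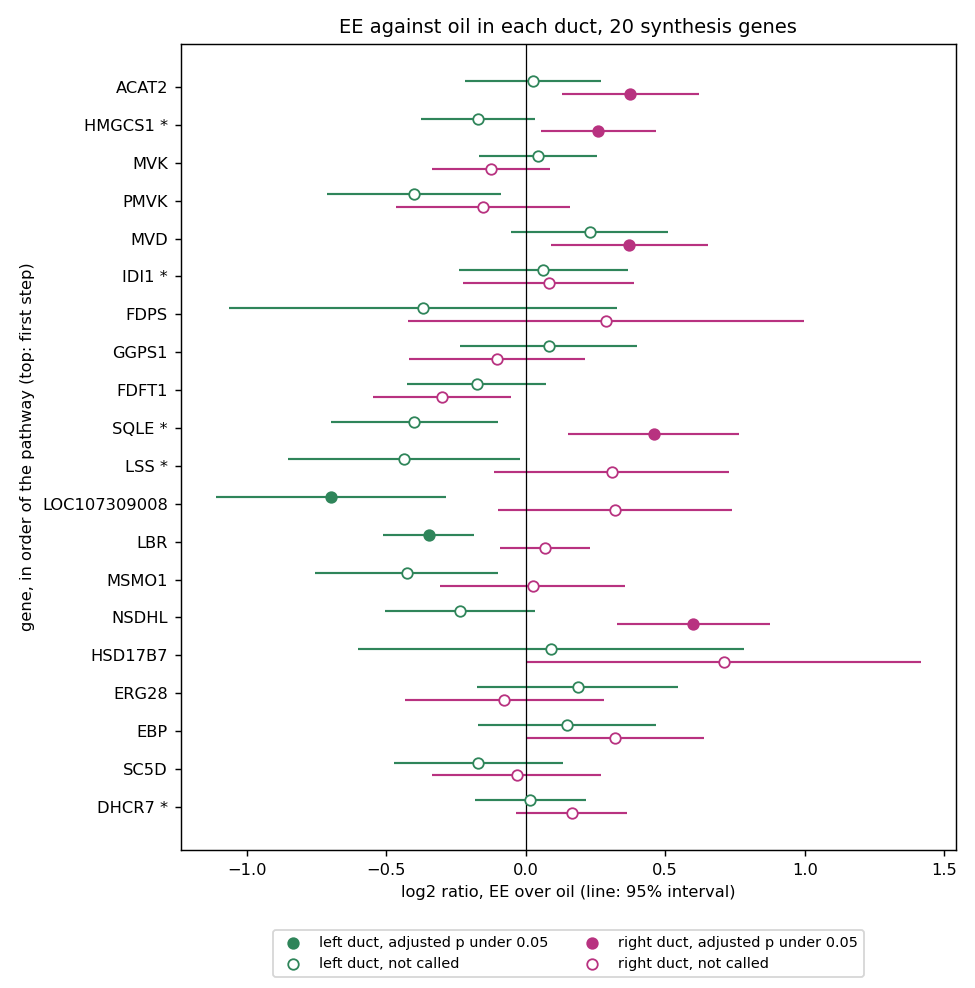
Log2 ratio of EE over oil (x axis) for the 20 synthesis genes in order of the pathway (y axis, * marks genes of the named set) in left (green) and right (magenta) ducts; lines are 95% intervals and filled points have an adjusted p under 0.05. The 2 filled left points lie below 0 and the 5 filled right points above 0.

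The third comparison set the left and right ducts of EE-exposed embryos against each other. None of the 6 genes and none of the 20 synthesis genes was called by edgeR, DESeq2 or limma, where 0.0848% of all genes tested were called. SQLE differed by 0.18 (95% interval -0.13 to 0.48), HMGCS1 by 0.12 (-0.09 to 0.32) and LSS by -0.07 (-0.48 to 0.35). The upper bounds for SQLE and HMGCS1 are below the ratios of 1.03 and 0.55 measured in oil. Those oil ratios carry an error of their own, so setting them beside the bounds is not a test of change. The interaction below is that test, and edgeR called it for SQLE but not for HMGCS1. IDI1 was the one gene of the 6 with an unadjusted p under 0.05 (0.0370), with a ratio of 0.33 (0.02 to 0.63) near its value of 0.35 in oil. That EE ratio leans on left EE replicate 3, at 30.4 CPM against 22.4 and 20.6 in the other left EE samples. Over the 23 alternatives it ran from 0.14 to 0.43. The left EE samples of IDI1 lay above the right EE samples, as was so for 6.23% of all genes tested, against 6.62% with the right above.

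Whether the EE effect differed between the ducts was tested as an interaction, the left minus right ratio in EE less that in oil. SQLE had an interaction of -0.86 ± 0.20 (log2, adjusted p = 0.0101), called in all 23 alternatives. It was the only one of the 6 genes called, where 11.8% of all genes tested were called, 4.74% with a positive and 7.08% with a negative value. HMGCS1 missed the threshold (-0.43 ± 0.14, adjusted p = 0.0525), as did LSS (-0.74 ± 0.28, adjusted p = 0.102). All 6 values were below 0, from -0.86 for SQLE to -0.02 for IDI1, with a median of -0.30 against 0.0002 over all genes. IDI1 crossed 0 when right oil replicate 2, left EE replicate 1 or 2 or right EE replicate 1 was left out (0.0032 to 0.088). LSS was called without right oil replicate 2 (-1.01, adjusted p = 0.0159) and under limma and library-size scaling, which both scale by total counts alone (adjusted p = 0.0278 to 0.0372). HMGCS1 was called in 6 of the 23 alternatives.

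Of the 20 synthesis genes, 4 had a called interaction, each negative, against 7.08% of all genes tested called with a negative value. Besides SQLE these were LOC107309008 (-1.02 ± 0.28, adjusted p = 0.0247), NSDHL (-0.84 ± 0.18, adjusted p = 0.00583) and LBR (-0.42, adjusted p = 0.0181). LOC107309008 lost its call without any one of left oil replicate 1, right oil replicates 2 and 3, left EE replicate 1 and right EE replicate 2, with values of -0.77 to -0.996 and adjusted p-values of 0.0521 to 0.0671. LBR lost it without right oil replicate 3 (-0.37, adjusted p = 0.0516), without the 3 samples set aside (-0.43, adjusted p = 0.0711) and with the haemoglobin covariate (-0.39, adjusted p = 0.0562). A negative interaction was called for 26 of 26 proliferation genes, 12 of 15 endothelial, 3 of 13 epithelial and 1 of 12 smooth muscle markers. Values were below 0 for 10 of 13 epithelial and 12 of 12 smooth muscle markers, with medians of -0.26 and -0.59. Macrophage and leukocyte markers were called positive for 6 of 11 and endothelial markers for 1 of 15, where 4.74% of all genes tested were. The part of these lists in the sterol gene interactions was not tested.

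Right EE ducts were also set against left oil ducts. SQLE remained lower in right EE ducts by -0.57 ± 0.14 (adjusted p = 0.00963) and HMGCS1 by -0.29 ± 0.10 (adjusted p = 0.0477), which are 2 of the 6 genes where 10.1% of all genes tested were called lower, 8.8% higher and 18.9% in either direction. HMGCS1 lost this call in 18 of 23 alternatives, with values between -0.22 and -0.33. DHCR7 lay higher in right EE ducts without overlap, as was so for 16.6% of all genes tested, but was not called (0.11, 95% interval -0.09 to 0.31). SQLE, HMGCS1 and IDI1, 3 of the 6, lay lower without overlap, as was so for 18.4% of all genes tested. IDI1 was not called, with ratios of -0.29 to -0.24 over the 23 alternatives. Of the 20 synthesis genes, 6 were lower and none higher, led by LOC107309008 at -0.78 (adjusted p = 0.0103). Without the 3 samples set aside, 3 synthesis genes were called, and LOC107309008 had -0.53 (adjusted p = 0.0702). Without left oil replicate 1, 2 were called, and without right EE replicate 2 or 3, 3 were called. Proliferation genes were lower in right EE ducts for 24 of 26, and endothelial markers were lower for 5 of 15 and higher for 1. Smooth muscle markers were lower for 2 of 12 and higher for 1. Macrophage and leukocyte markers were higher for 6 of 11 and epithelial markers for 3 of 13. The part of these lists was not tested.

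Summed over the 20 synthesis genes, the level was 775 ± 30.6 CPM in left oil, 625 ± 30.9 in right oil, 689 ± 8.94 in left EE and 671 ± 16.4 in right EE (SD, n = 3). The sum weighs genes by their level. LBR, which is also the lamin B receptor, was the highest of the 20, with means of 170 CPM in left oil and 122 CPM in right oil ducts. Left oil samples ran from 745 to 806 CPM, above all other samples, and right oil samples from 595 to 657 CPM. The right EE range of 652 to 682 CPM overlapped those of right oil and left EE. The plot of summed levels sets these beside cell type lists. Proliferation genes had the order left oil, left EE, right EE and right oil too, with 3099 to 3548 CPM in left EE and 2538 to 2997 CPM in right EE. Macrophage and leukocyte markers ran in the reverse order, from 93.9 to 107 CPM in left oil to 272 to 282 CPM in right oil.

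**Figure D4:**
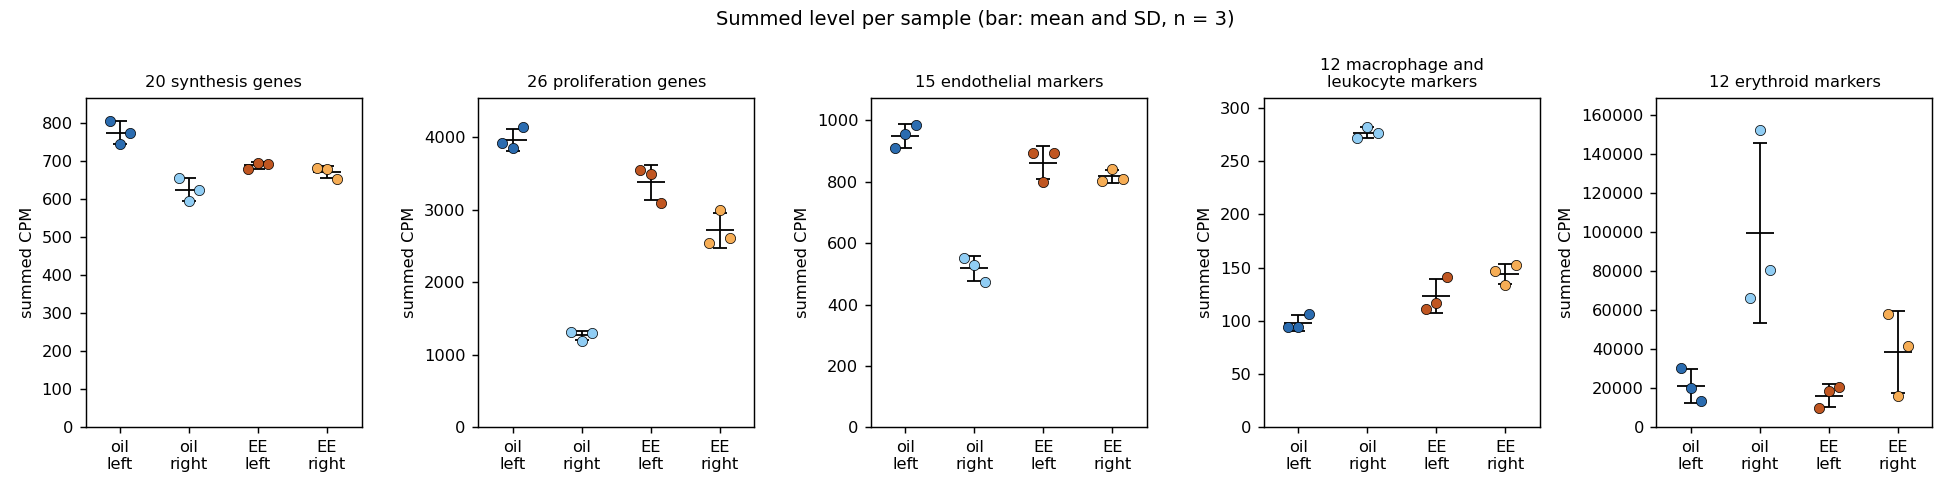
Summed CPM (y axis, from 0) of 20 synthesis genes and of 4 marker lists in the 4 groups (x axis); points are samples and bars the mean and SD of 3. The synthesis genes spanned 595 to 806 CPM over the 12 samples, a narrower relative range than the proliferation genes, at 1191 to 4139 CPM.

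SREBP regulators were followed in the same comparisons. SREBF2, the family member that mainly drives cholesterol genes, had a left minus right ratio in oil of 0.07 (adjusted p = 0.647) and an EE ratio of 0.001 on the right (adjusted p = 0.996). SREBF1 was at -0.36 between the ducts in oil (adjusted p = 0.0612) and at -0.38 with EE on the right (adjusted p = 0.0523). SCAP, the escort protein, and INSIG2 were not called in any comparison. On the left in oil, where 18.5% of all genes tested were called lower, 1 of the 8 regulators tested was lower. This was the ubiquitin ligase RNF139 (-0.44, adjusted p = 0.00146). RNF139 lost this call in 3 of 23 alternatives, limma with either pseudocount and the haemoglobin covariate (adjusted p = 0.0589 to 0.066). In right ducts RNF139 fell with EE (-0.51, adjusted p = 0.000495), and MBTPS2, an SREBP protease, had -0.56 (adjusted p = 0.0455), a call lost in 17 of 23 alternatives. These were 2 of the 8 regulators, where 17.1% of all genes tested were called lower with EE on the right. The interaction of RNF139 was called at 0.45 (adjusted p = 0.0339), but the call was lost in 13 of 23 alternatives, with an adjusted p of up to 0.204. It was 1 of the 8, where 4.74% of all genes tested were called with a positive value. With EE on the left none of the 8 regulators was called by edgeR, where 13.7% of all genes tested were called.

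Genes listed for the uptake, storage and efflux of sterols, some of which act inside the cell, differed mostly in the other direction. Of 19 tested, 11 were lower on the left in oil and 1 was higher. In that comparison 18.5% of all genes tested were called lower and 19% higher. ABCA1, the exporter that loads cholesterol on lipoproteins, differed by -1.36 (adjusted p = 3.4e-08) and APOA1, a lipoprotein that accepts it, by -2.54 (adjusted p = 1.56e-07). NPC2, which carries cholesterol out of lysosomes, was at -0.90 (adjusted p = 1.79e-05), and MYLIP, a ligase that degrades lipoprotein receptors, at -0.58 (adjusted p = 0.00014), a call lost with the haemoglobin covariate (-0.45, adjusted p = 0.0867). With EE on the right, 7 of the 19 fell and 3 rose, including ABCA1 (-0.97, adjusted p = 1.3e-06), APOA1 (-1.42, adjusted p = 4.69e-05), MYLIP (-0.54, adjusted p = 0.000299) and, among those that rose, TMEM97, a sterol-binding membrane protein (0.87, adjusted p = 0.000287). Of all genes tested, 17.1% were called lower with EE on the right and 17.8% higher. With EE on the left, VLDLR, a lipoprotein receptor, rose by 1.29 (adjusted p = 7.68e-05), and TMEM97 had 0.46 (adjusted p = 0.0492), a call lost in 13 of 23 alternatives. VLDLR was also called higher with EE on the right, at 0.37 to 0.68 over the 23 alternatives, a call lost in 6 of them. On the left in oil VLDLR was called lower, a call lost in 4 of 23. Macrophage and leukocyte markers were lower on the left in oil and fell with EE on the right for 7 of 11. Their part in the differences of these sterol genes was not tested.

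**Figure D5:**
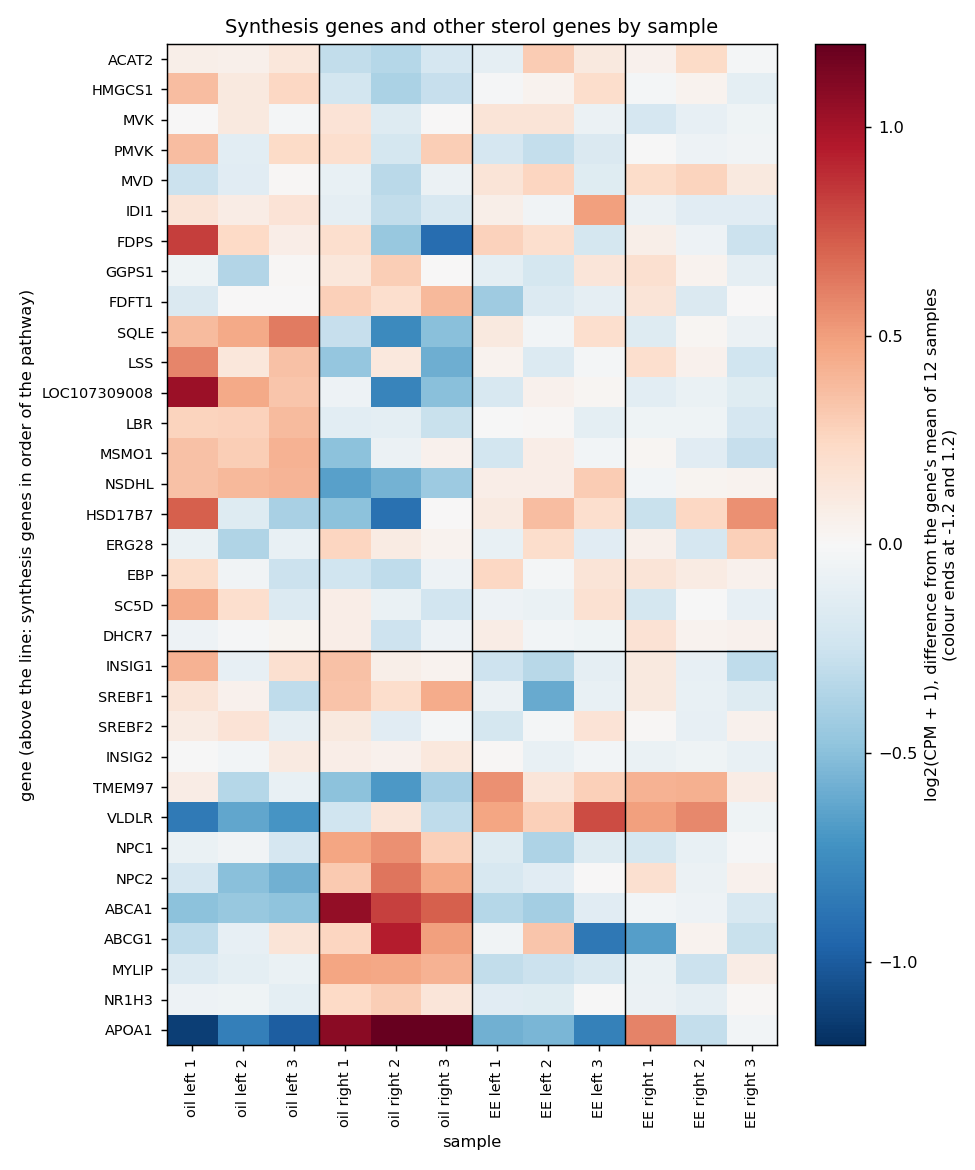
Difference of log2(CPM + 1) from each gene's mean over 12 samples (colour, ending at -1.2 and 1.2) for synthesis genes in order of the pathway (above the line) and regulators and transport genes (below it), with the 12 samples on the x axis. NSDHL and SQLE are high in the 3 left oil samples and low in the 3 right oil samples, while ABCA1 and APOA1 show the opposite, with APOA1 past the colour end in right oil replicates 2 and 3.

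Fatty acid genes, several of which SREBPs also control, gave 4 of 10 higher on the left in oil and none lower. Over all genes tested the shares were 19% higher and 18.5% lower. ELOVL6, a fatty acid elongase, had 1.03 (adjusted p = 7.44e-05), ELOVL5 0.40 (adjusted p = 0.00204), ACACA, acetyl-CoA carboxylase, 0.43 (adjusted p = 0.00322) and FASN, fatty acid synthase, 0.42 (adjusted p = 0.00334). With the haemoglobin covariate none of these 4 was called by edgeR, and the ratios were 0.58 for ELOVL6 (adjusted p = 0.0959), 0.34 for ELOVL5 (adjusted p = 0.196), 0.31 for ACACA (adjusted p = 0.294) and 0.13 for FASN (adjusted p = 0.648). With EE on the right, 4 rose and 1 fell, where 17.8% of all genes tested were called higher and 17.1% lower. Among those that rose was ELOVL6 (0.69, adjusted p = 0.00229), which had 0.38 with the covariate (adjusted p = 0.133). No gene of the other isoprenoid branches, such as protein prenylation and dolichol synthesis, was called in any of the 6 comparisons (11 tested, edgeR). Of the steroid hormone list, 4 of the 10 genes in the table passed the filter, and AKR1D1, a steroid reductase, was lower on the left in oil (-1.31, adjusted p = 1.4e-05).

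Genes whose levels ran most like the mean of the 6 genes were ranked by Pearson correlation of log2(CPM + 1) over the 12 samples, which share their libraries, groups and scaling. LOC-numbered genes were left out of the lists of most alike genes, so closer ones may exist among them. The 10 most alike were JMJD4 and TULP4 (both r = 0.935), NEURL1B (0.930), MPP6 (0.929), LAMA2 (0.928), KALRN (0.926), PRTFDC1 (0.916), SEMA7A (0.913), CD99 (0.912) and GSDME (0.912). The most alike gene was BAZ1B for HMGCS1 (r = 0.969), OXCT1 for SQLE (0.972), ATOH8 for LSS (0.874), TGFBR2 for DHCR7 (0.880), ENAH for IDI1 (0.888) and MBTD1 for INSIG1 (0.882). The nearest gene of the pathway to the mean of the 6 was LOC107309008 (r = 0.855), at rank 70 of 11784 other genes, followed by NSDHL (0.797, rank 265). These ranks do include LOC-numbered genes. The 6 genes did not share one profile. HMGCS1, SQLE, LSS and IDI1 had r of 0.385 to 0.919 with each other. INSIG1 had r of -0.053 to 0.294 with the other genes of the 6, and DHCR7 -0.059 to 0.349. The mean of the 6 is thus not a pattern common to all of them. All these values describe likeness over 4 groups of samples and carry no test.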

How the data were processed

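The 12 samples were profiled by RNA sequencing. Adapters were trimmed with cutadapt 1.9.1, reads aligned with HISAT2 2.0.1 and counted with HTSeq 0.6.1, and DESeq2 1.6.3 was named, per the submitters' processing notes. Genome build, annotation and strand setting: not given in the sources used here. Raw counts for every gene were deposited, with FPKM values that the authors made from them, which the counts and the deposited exonic lengths (other columns) returned to within 0.005. Start and end of all 16013 genes equalled those in the RefSeq gene table of Coturnix japonica 2.1. No per-sample column was left unused (0).

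The two-sided quasi-likelihood test of edgeR 4.0.16, under R 4.3.3 and after TMM scaling, was applied to these counts in one model of 4 group means over 12 samples. A gene was tested if its FPKM reached 1 in all 3 samples of any group, which kept 11790. A gene was called at a Benjamini-Hochberg adjusted p under 0.05 over all of these, and all adjusted p-values are from this test unless another tool is named. CPM are counts divided by the TMM-adjusted library size. Total counts of 13303458 to 23621985 per sample set the precision, and the spread of 3 samples gives the SD. The script was tested on simulated data. An exact permutation test of 3 samples against 3 was not used.

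The members and the lists were chosen with earlier results of these data known. Of 267 list entries, 203 matched by symbol and 29 by description. Named were all members, the synthesis genes and the SREBP regulators; of each other list up to 4 called genes with the lowest p; and, for likeness, the 10 genes most like the member mean and the first of the 3 for each member, with a pseudocount of 1. The likeness lists left out LOC-numbered genes. Genes used as checks of overlap, tissue and near copies were chosen after their values were seen. The 23 alternatives were DESeq2 1.42.0, limma 3.58.1 on log2(FPKM) with a pseudocount of 1 or 0.1, RLE or library-size scaling, no filter, filterByExpr, a replicate block, a haemoglobin covariate, no haemoglobin genes, 3 samples left out together, and each of the 12 samples left out. Replicate numbers were not taken as pairs. No sequences were used here, and some genes of the lists are not reported here.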

Additional observations from a re-analysis of the deposited data

Results flagged for a closer look

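For 4 of the 20 synthesis genes the EE effect differed between the left and the right duct by the edgeR interaction test. Over all genes tested 11.8% were called, 7.08% with a negative value. Genes of other lists were called too, such as RNF139 above. The EE effect in left ducts less that in right ducts was -0.86 for SQLE (log2, adjusted p = 0.0101), -0.42 for LBR (adjusted p = 0.0181), -0.84 for NSDHL (adjusted p = 0.00583) and -1.02 for LOC107309008 (adjusted p = 0.0247). SQLE and NSDHL were called on the right only, and LBR and LOC107309008 on the left only. With groups of 3 samples, single samples far from the others were not tested for.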

How the results depend on the processing

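Of 828 ratios of the 6 genes under 23 alternatives, 745 kept their direction and side of the threshold, 42 lost a call, 23 gained one and 18 changed sign, and of 1702 ratios of other pathway genes called at first, 1440 kept the call and 262 lost it. The cause of these changes was not tested. The count of the 6 genes called for EE on the right (2) was 1 under DESeq2, RLE scaling, no filter, filterByExpr, the replicate block and without the 3 samples, 4 under limma (both pseudocounts) and library-size scaling, 0 with the haemoglobin covariate, and 0 to 2 with single samples left out. For right EE against left oil (2) it was 1 under limma, library-size scaling, no filter, filterByExpr, the replicate block, the haemoglobin covariate, without haemoglobin genes and without the 3 samples, and 1 to 2 with single samples left out. For the interaction (1) it was 2 under DESeq2 and limma, 3 under library-size scaling, and 1 to 2 with single samples left out. With the haemoglobin covariate it was 1 for left against right in oil (3) and 1 for EE on the left (0), where leaving out single samples gave 0 to 1. The replicate block changed no other count of the 6 genes. Correlations of same-numbered left and right samples were 0.0698 to 0.183 in oil and -0.0515 to 0.0765 in EE. Differently numbered samples were not compared, so these values do not decide whether the samples are pairs.

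Signs changed for small ratios. For EE on the left, DHCR7 was -0.0066 with the haemoglobin covariate, -0.0077 without the 3 samples, -0.0067 without left oil replicate 1 and -0.031 without left EE replicate 1, where single samples left out gave at most 0.044, and IDI1 was -0.12 without left EE replicate 3. For left against right in oil, DHCR7 was -0.073 with the covariate and -0.022 without right oil replicate 2 (highest of such values 0.14), and INSIG1 -0.0058 without the 3 samples, -0.12 without left oil replicate 1, -0.020 without right oil replicate 2 and -0.032 without right oil replicate 3 (highest 0.16). For left against right in EE, LSS was 0.093 with the covariate, 0.041 without the 3 samples and 0.041 without right EE replicate 1 (lowest -0.18). The interaction of IDI1 was 0.036 without right oil replicate 2, 0.041 and 0.088 without left EE replicates 1 and 2, and 0.0032 without right EE replicate 1 (lowest -0.21).

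Library-size scaling moved the median of all genes to 0.178 for left against right in oil, 0.17 for EE on the right and -0.145 for the interaction, and the share higher among called genes from 50.6% to 75.3%, 50.9% to 75.6% and 40.1% to 20.5%. The limma runs used FPKM, which are also scaled by total counts without TMM. All genes called fell from 4423 to 1227 (left against right in oil) and from 4112 to 2365 (EE on the right) with the covariate. For left against right in EE they were 10, against 899 at an unadjusted p under 0.05, 77 under DESeq2, 2 under limma, 5 with the block or the covariate, 6 without the 3 samples and 4 to 74 with single samples left out. For right EE against left oil they fell from 2228 to 1145 without the 3 samples and to 1392 without right EE replicate 1. Synthesis genes called for EE on the right (5) were 9 or 10 under limma, 10 under library-size scaling, 3 with the block or without the 3 samples, 1 with the covariate, 2 without right oil replicate 2 and 1 without right EE replicate 2. For EE on the left (2) they were 1 under limma, without the 3 samples, without left oil replicate 1 and without each left EE sample. For left against right in oil (9) they were 4 with the covariate, and for the interaction (4) 2 without right oil replicate 3. For right EE against left oil (6) they were 3 without the 3 samples, 2 without left oil replicate 1 and 3 without right EE replicate 2 or 3.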
